A study of Homo sapiens with 2 samples.

Results

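The 31 genes described here encode enzymes of sterol and fatty acid synthesis and the proteins that regulate them. They were taken from a list of SREBP pathway symbols and looked up by gene identifier, and all 31 were found among the 19052 genes listed in either library. They were divided by role into 18 genes of the mevalonate and sterol branch, 7 genes of the fatty acid branch and 6 genes for regulators and sterol transport. Transcript levels were measured by RNA sequencing of the human cell line TSU-Pr1, which comes from a bladder carcinoma. The series title describes these cells as stably expressing KLF5, an epithelial transcription factor, and both groups carry that change. The labels also use the name K12 for them. In the siCINP group the cells were transfected with siRNA against CINP, which encodes a protein known to bind the cell cycle kinase CDK2, and in the siCtrl group with a control siRNA. Both were kept in medium with 8% FBS, a source of lipoproteins, and harvested after 48 h. The rounded expected counts, which estimate the reads assigned to genes, summed to 10314195 in siCINP and 10365289 in siCtrl. Before rounding, the expected count was above 0 in 18115 genes in siCINP and 17847 in siCtrl. Each group was 1 library, so the comparisons below have no replicate check and carry no p-value. The intervals cover counting error alone and set one library against the other, not one condition against the other. In bulk RNA, a lower level in every cell and a low level in some of the cells cannot be told apart.

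Cholesterol is built from acetyl-CoA by way of mevalonate, isoprenoid diphosphates, squalene and lanosterol, while the fatty acid branch turns the same acetyl-CoA into long saturated and desaturated acyl chains. Both branches are controlled by the SREBP transcription factors, the products of SREBF1 and SREBF2. These are made as precursors in the endoplasmic reticulum membrane, where SCAP escorts them to the Golgi for cleavage when sterols are scarce and the INSIG proteins hold SCAP back when sterols are plentiful. The SREBF2 product acts mainly on sterol genes, while the SREBF1 products act on fatty acid genes without being limited to them.

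As a check of the labels, CINP had 53 reads in siCINP and 203 in siCtrl (log2 ratio -2.01, 95% interval -2.47 to -1.56). KLF5 had 4077 reads in siCINP and 4013 in siCtrl, a ratio of -0.045 with an interval of -0.11 to 0.018. The keratins KRT8 and KRT18, markers of simple epithelium, stood at 1624 and 1942 FPKM in siCINP, against 1552 and 1772 in siCtrl. The 4 other epithelial markers were far lower in level and higher in siCINP, with 297 reads in siCINP and 154 in siCtrl for KRT7 (0.88, 0.59 to 1.17), 44 and 20 for KRT19 (1.07, 0.28 to 1.91), 75 and 46 for CDH1 (0.64, 0.09 to 1.20) and 15 and 4 for EPCAM. Among these epithelial markers only EPCAM had whole counts, and its reads were under the minimum of 20 used below. Of 8 urothelial markers 5 were above 0 in siCINP and 6 in siCtrl, summing to 3.90 and 5.09 FPKM. UPK2 and KRT20 were not listed. Adipocyte markers summed to 0.63 FPKM in siCINP and 0.36 in siCtrl, markers of steroid-producing cells to 0.62 and 0.53, leukocyte markers to 0.61 and 0.70, endothelial markers to 1.25 and 0.76, and hepatocyte markers to 0.04 and 0. All 4 mesenchymal markers were listed, at 384.0 FPKM in siCINP and 918.2 in siCtrl. The difference lay in VIM, the gene for vimentin, with 7167 reads in siCINP and 19204 in siCtrl (-1.49, -1.53 to -1.45), and the part of these markers in the pathway's values was not tested.

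The pathway was strongly expressed in both libraries. The level of each gene is given as deposited FPKM, which is scaled for gene length. Of the 31 genes, 19 lay in the top 10% of listed genes by FPKM in siCINP and 18 in siCtrl. ACLY, which makes cytosolic acetyl-CoA from citrate, was the highest with 153.3 FPKM in siCINP and 135.3 in siCtrl. FDPS, farnesyl diphosphate synthase, followed with 147.7 and 129.9 FPKM in siCINP and siCtrl, and then SCD, the stearoyl-CoA desaturase, with 120.1 and 127.9. These 3 genes held the same places in both libraries. INSIG2 and TM7SF2 were the lowest in both. INSIG2 stood at 3.06 FPKM in siCINP and 6.09 in siCtrl, and TM7SF2 at 11.6 and 6.98. Among the regulators the SREBF2 transcript exceeded that of SREBF1 by 3.77 times in siCINP and 2.77 times in siCtrl, and INSIG1 exceeded INSIG2 by 10.4 times in siCINP and 6.31 times in siCtrl, both as ratios of FPKM.

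**Figure D1:**
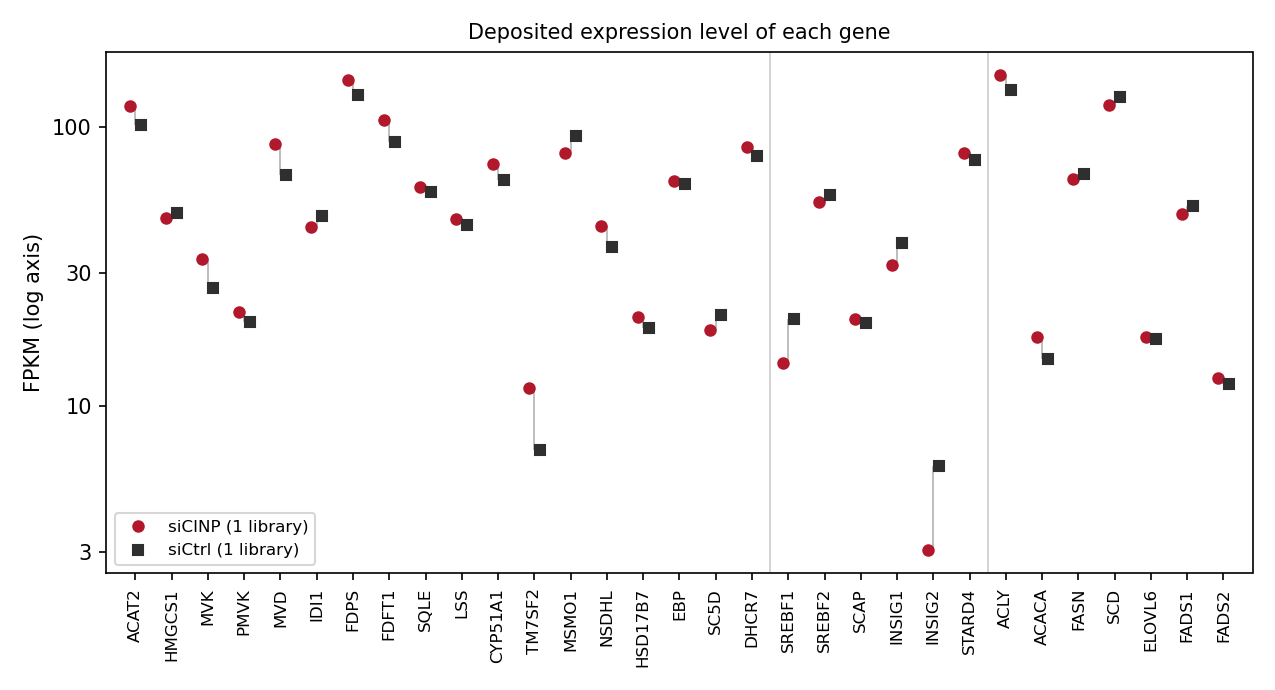
Deposited FPKM (log axis) of each of the 31 genes in siCINP (red circles, 1 library) and siCtrl (dark squares, 1 library), with grey lines joining the libraries and vertical lines between the mevalonate and sterol branch (left), regulators and transport (middle) and fatty acid branch (right). Most pairs lie close together, and the widest gaps are at INSIG2 (3.06 in siCINP and 6.09 in siCtrl), TM7SF2 (11.6 and 6.98) and SREBF1 (14.3 and 20.6).

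Most of the pathway differed little between the libraries. In 28 of the 31 genes (90.3%) the level lay within 1.5-fold of siCtrl, against 88.0% of all 13076 compared genes, those that reached 20 reads in either library. The 3 genes outside that range were INSIG2 and SREBF1, lower in siCINP, and TM7SF2, higher in siCINP. A gene counted as past a fold rule when its log2 ratio of TMM-scaled reads reached that fold and its interval left out 0. At 2-fold, 1 of the 31 genes was lower (1.41% of all compared genes were) and 0 were higher (1.69%). At 1.5-fold, 2 were lower (4.88%) and 1 was higher (5.06%). The interval lay above 0 in 10 genes (18.6% of all compared genes) and below 0 in 11 (23.1%), and covered 0 in the remaining 10. The listed genes were sequenced more deeply than most, with a median of 1798 reads in siCINP and 1547 in siCtrl, against 333 and 320 over all compared genes, which narrows their intervals. Among genes with a mean of 500 or more reads, 9 and 10 of the 26 listed genes lay above and below 0 (34.6% and 38.5%), compared with 23.5% and 37.4% of all 5019 such genes.

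The branch medians differed by small amounts, and with TMM scaling those of the synthesis branches lay on opposite sides of 0. The mevalonate and sterol branch had a median log2 ratio of 0.039, with 8 of 18 intervals above 0 and 4 below. Its median was 0.11 with scaling to the summed counts and 0.082 with upper quartile scaling. The fatty acid branch had a median of -0.034, which was 0.041 with scaling to the summed counts and 0.0091 with upper quartile scaling, with 2 of 7 intervals above 0 and 3 below. The regulators and STARD4 had a median of -0.25, with 0 of 6 above and 4 below, and all 6 values were negative with TMM scaling, while that of SCAP was positive with the 3 other scalings and that of STARD4 with summed counts and upper quartile scaling. Among all compared genes, 18.6% of intervals lay above 0 and 23.1% below. At a mean of 500 or more reads these shares were 23.5% and 37.4%. The median over all compared genes was -0.013, with quartiles of -0.21 and 0.20. The medians of both synthesis branches lay between these quartiles, and that of the regulators just below the lower one. The quartiles describe single genes, and a median over several genes varies less, so this placing cannot show whether a branch was shifted. The sterol branch summed to 27008 reads in siCINP and 25449 in siCtrl (log2 ratio 0.018, -0.0071 to 0.042), and the fatty acid branch to 24578 and 24417 reads (-0.059, -0.084 to -0.033). Scaling to the summed counts moved these ratios of sums to 0.093 and 0.017, so that the sign of the fatty acid sum depended on the scaling. The difference between the branch medians, sterol minus fatty acid, was 0.073, a value that scaling cannot move, and it was 0.050 without the gene of each branch farthest from 0 and 0.096 with means in place of medians. The genes of a branch are not replicates and the difference between branches was not tested.

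**Figure D2:**
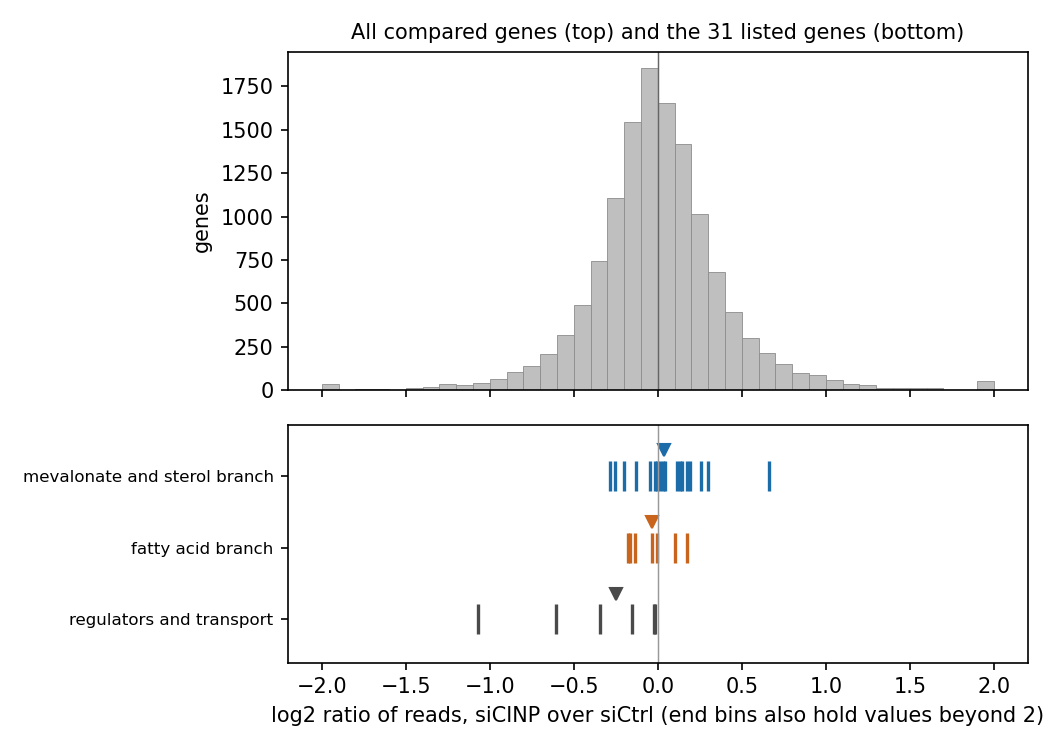
Top: number of genes by log2 ratio of reads, siCINP over siCtrl, for all 13076 compared genes in bins of 0.1. Bottom: the ratio of each of the 31 genes as a tick, by branch, with a triangle at the branch median (0.039 for the mevalonate and sterol branch, -0.034 for the fatty acid branch and -0.25 for regulators and transport).

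Of the 3 genes past 1.5-fold, 2 were regulators. INSIG2, one of the retention proteins for SCAP, had 82 reads in siCINP and 164 in siCtrl, 2.10-fold lower (log2 ratio -1.07, -1.47 to -0.68). With scaling to the summed counts its ratio was -0.99, just short of 2-fold. Only 1.23% of compared genes had a ratio at or below that of INSIG2. INSIG1, the other retention protein and itself a classical SREBP target, had 991 reads in siCINP and 1198 in siCtrl (-0.34, -0.46 to -0.22). The reads of both INSIG genes summed to 1073 in siCINP and 1362 in siCtrl (-0.41, -0.53 to -0.30).

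SREBF1 had 735 reads in siCINP and 1066 in siCtrl, 1.52-fold lower (log2 ratio -0.60, -0.74 to -0.47). It passed the 1.5-fold rule with TMM scaling alone, at -0.58 with DESeq2 size factors, -0.56 with upper quartile scaling and -0.53 with summed counts, and its interval lay below 0 in all 4. SREBF2, the sterol-directed factor, had 2983 reads in siCINP and 3171 in siCtrl (-0.16, -0.23 to -0.08), a smaller difference in the same direction. SCAP, the escort of both precursors, had 895 reads in siCINP and 863 in siCtrl (-0.016, -0.15 to 0.12). STARD4, a cytosolic sterol carrier, had 3664 reads in siCINP and 3557 in siCtrl (-0.025, -0.092 to 0.042), with counts that were not whole. For SCAP and STARD4 no difference was detectable at this depth with TMM scaling.

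**Figure D3:**
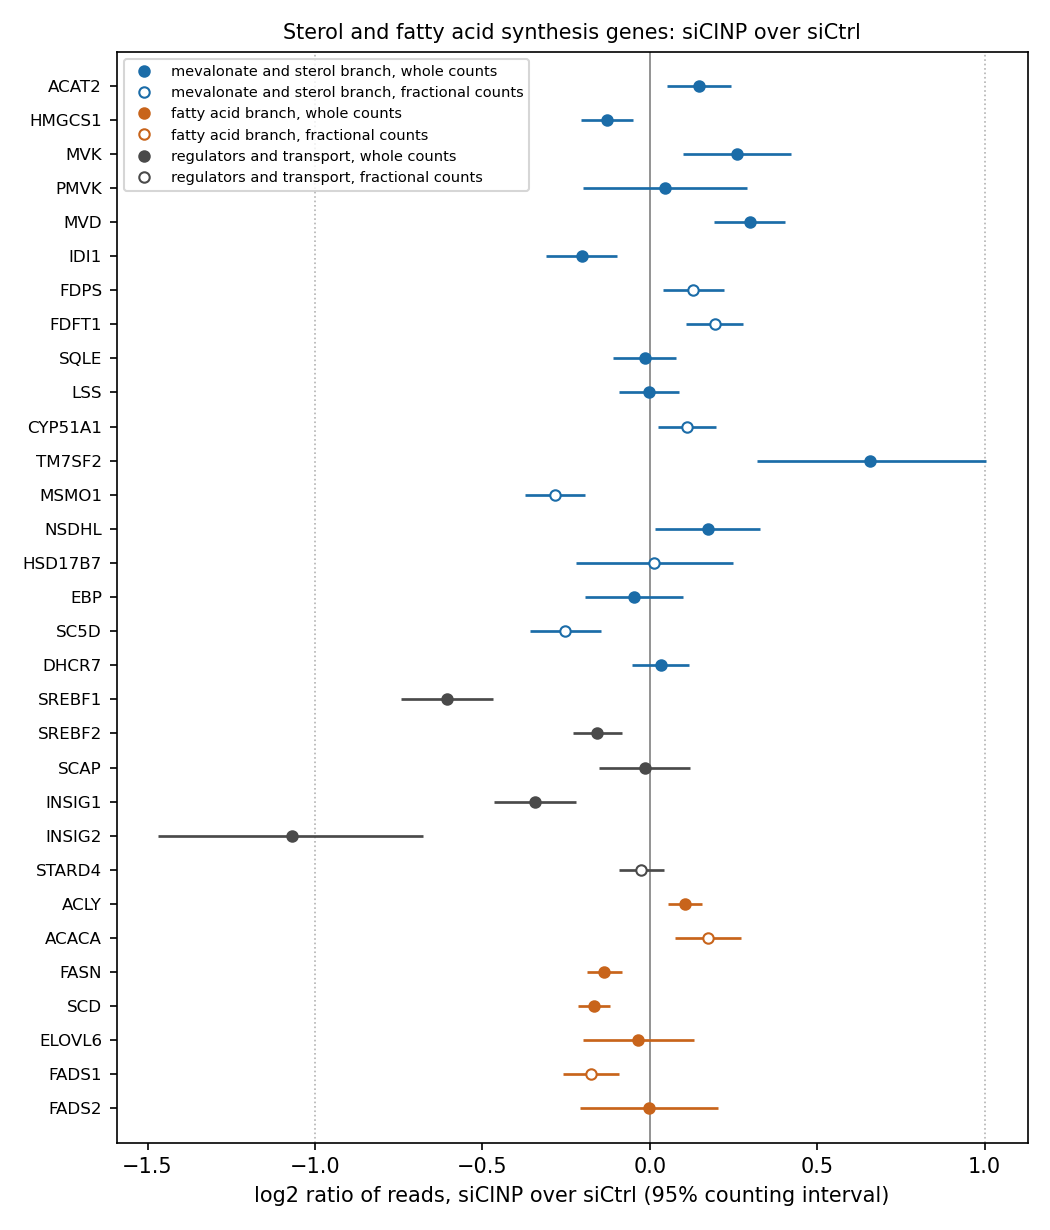
Log2 ratio of reads, siCINP over siCtrl, for the 31 genes with exact 95% counting intervals, ordered by role, with open circles for genes whose expected counts were not whole and dotted lines at 2-fold. INSIG2 at -1.07 lies beyond the lower line, SREBF1 (-0.60) and TM7SF2 (0.66) come next, and the other genes lie between -0.34 and 0.30.

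The early steps from acetyl-CoA to farnesyl diphosphate were mixed, with 4 of 7 intervals above 0 and 2 below. The shares over all compared genes were 18.6% above and 23.1% below, and at a mean of 500 or more reads 23.5% and 37.4%. ACAT2, the cytosolic thiolase that opens the pathway, had 1941 reads in siCINP and 1673 in siCtrl (0.15, 0.05 to 0.24). HMGCS1, HMG-CoA synthase, had 2668 reads in siCINP and 2781 in siCtrl (-0.13, -0.21 to -0.05), an interval that covered 0 with scaling to the summed counts. The kinase MVK had 715 reads in siCINP and 570 in siCtrl (0.26, 0.10 to 0.42). PMVK, which adds the next phosphate, had 290 reads in siCINP and 268 in siCtrl (0.046, -0.20 to 0.29), with no detectable difference. MVD, the decarboxylase that yields isopentenyl diphosphate, had 1678 reads in siCINP and 1302 in siCtrl (0.30, 0.19 to 0.40), the highest ratio among the early steps. IDI1, which isomerises that product, had 1361 reads in siCINP and 1495 in siCtrl (-0.20, -0.31 to -0.10). FDPS, farnesyl diphosphate synthase, had 2110 reads in siCINP and 1840 in siCtrl (0.13, 0.04 to 0.22), with counts that were not whole. Neighbouring steps stood in opposite directions, with MVD higher and IDI1 lower in siCINP.

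In the steps from farnesyl diphosphate to lanosterol, 1 of 3 genes stood apart from 0, with an interval above it. The share above 0 was 18.6% of all compared genes and 23.5% of those with a mean of 500 or more reads. FDFT1, squalene synthase, had 2432 reads in siCINP and 2029 in siCtrl (0.19, 0.11 to 0.28), with counts that were not whole. SQLE, squalene epoxidase, had 1883 reads in siCINP and 1816 in siCtrl (-0.016, -0.11 to 0.078). LSS, lanosterol synthase, had 2033 reads in siCINP and 1942 in siCtrl (-0.0021, -0.093 to 0.088). For SQLE and LSS the intervals leave room for a difference of at most 0.11 in log2 terms in either direction, with TMM scaling.

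Of the 8 genes that convert lanosterol to cholesterol, 3 had intervals above 0 and 2 below (18.6% and 23.1% of all compared genes). At a mean of 500 or more reads the shares over all genes were 23.5% and 37.4%. TM7SF2, a sterol reductase whose reaction is shared with the lamin B receptor, had 192 reads in siCINP and 116 in siCtrl, 1.58-fold higher (0.66, 0.32 to 1.004), the highest ratio of the 31 genes. Its neighbour VPS51, annotated on the same strand with an overlap of 16 bases, had 484 reads in siCINP and 535 in siCtrl (-0.21, -0.39 to -0.03), the opposite direction. CYP51A1, the lanosterol demethylase, had 2350 reads in siCINP and 2075 in siCtrl (0.11, 0.026 to 0.20). NSDHL, a dehydrogenase of the demethylation steps, had 723 reads in siCINP and 612 in siCtrl (0.17, 0.015 to 0.33). MSMO1, the methylsterol oxidase that acts with NSDHL, had 1852 reads in siCINP and 2150 in siCtrl (-0.28, -0.37 to -0.19), the lowest ratio of the sterol branch. SC5D, a sterol desaturase, had 1362 reads in siCINP and 1547 in siCtrl (-0.25, -0.36 to -0.15). The remaining 3 genes had no detectable difference. HSD17B7, the keto reductase of the demethylation steps, had 311 reads in siCINP and 294 in siCtrl (0.013, -0.22 to 0.25). EBP, the sterol isomerase, had 773 and 762 reads in siCINP and siCtrl (-0.047, -0.19 to 0.099). DHCR7, the reductase that can complete cholesterol, had 2334 and 2177 (0.032, -0.053 to 0.12), and its interval lay above 0 only with scaling to the summed counts. The counts of CYP51A1, MSMO1, SC5D and HSD17B7 were not whole.

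Within the fatty acid branch, 2 of 7 intervals lay above 0, those of ACLY and ACACA, and 3 below, those of FASN, SCD and FADS1. Over all compared genes 18.6% lay above 0 and 23.1% below, and at a mean of 500 or more reads 23.5% and 37.4%. ACLY had 6952 reads in siCINP and 6167 in siCtrl (0.10, 0.06 to 0.15). ACACA, the carboxylase that makes malonyl-CoA, had 1798 reads in siCINP and 1521 in siCtrl (0.17, 0.07 to 0.27), with counts that were not whole. FASN, fatty acid synthase, had 5743 reads in siCINP and 6019 in siCtrl (-0.14, -0.19 to -0.08). SCD, which places a double bond in the finished chain, had 6844 reads in siCINP and 7326 in siCtrl (-0.17, -0.21 to -0.12). FADS1, a desaturase of polyunsaturated chains, had 2241 reads in siCINP and 2416 in siCtrl (-0.18, -0.26 to -0.09), with counts that were not whole. Its partner desaturase FADS2 had 402 reads in siCINP and 384 in siCtrl (-0.0021, -0.21 to 0.20). ELOVL6, an elongase of saturated chains, had 598 reads in siCINP and 584 in siCtrl (-0.034, -0.20 to 0.13). The directions of ACLY, ACACA, FASN, SCD and FADS1 were the same with all 4 scalings.

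Counts were whole in both libraries for 22 of the 31 genes, and the 9 others are uncertain, since fractional expected counts can mark reads shared with similar sequences. FDPS and HSD17B7 have listed copies. FDPSP2 had 116 reads in siCINP and 109 in siCtrl, and adding them to FDPS gave a log2 ratio of 0.12 (0.03 to 0.21). HSD17B7P2 had 71 reads in siCINP and 59 in siCtrl, and the sum with HSD17B7 was at 0.046 (-0.17 to 0.26). Neither sum changed what was seen for the gene alone. MMAB, an enzyme of cobalamin metabolism that overlaps MVK on the opposite strand, had 270 reads in siCINP and 309 in siCtrl (-0.26, -0.50 to -0.02), where MVK was higher. ACAT2 is overlapped on the opposite strand by TCP1, SOD2 and SOD2-OT1, over up to 397, 1106 and 1309 bases. TCP1 was at -0.049 (-0.11 to 0.016). SOD2 had 781 reads in siCINP and 817 in siCtrl (-0.13, -0.28 to 0.010), and SOD2-OT1 had 21 and 12. FEN1, a flap endonuclease that overlaps FADS2 on the same strand, was lower (-0.73, -0.86 to -0.61), and FADS2 was not detectably so. RAI1, which overlaps SREBF1 on the opposite strand, had 1098 reads in siCINP and 1124 in siCtrl (-0.10, -0.22 to 0.019). FADS1 and FADS2 overlap each other on opposite strands by up to 165 bases, and whether the counting used strand was not stated.

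The 3′ UTRs were searched for the heptamers TGCAAGA and GCAAGAA, which were singled out in these libraries because genes that carry them tend to be lower in siCINP. In the transcript with the longest coding sequence (GENCODE 29, GRCh38), 5 of the 31 genes (16.1%) carried one, against 1779 of the 11665 genes whose 3′ UTR reached 30 bases (15.3%). The interval lay below 0 in 4 of the 5 carriers and above 0 in 0, with a median log2 ratio of -0.17. Over all carriers, 40.0% lay below 0 and 13.4% above, with a median of -0.13. Because the heptamers were chosen from these same ratios, lower values among carriers follow in part from that choice. They are not an independent observation. Of the 26 listed genes without either heptamer, 10 intervals lay above 0 and 7 below, against 20.3% above and 21.9% below over all genes without one. These shares, with and without a heptamer, were not matched for depth. The listed genes were sequenced more deeply than most, which narrows their intervals. Carriers also had longer 3′ UTRs, with a median of 1736 bases against 931.5 in the listed genes and 2982 against 871.5 over all genes, and the part of length was not tested. The 7 lower genes with no heptamer in the searched 3′ UTR were INSIG2, INSIG1, SREBF2, MSMO1, SC5D, IDI1 and FASN. No other transcript of a gene was searched, so a heptamer in a longer 3′ UTR would be missed. For SC5D the searched 3′ UTR had 1182 bases and the deposited gene length in siCtrl was 6950. For INSIG2 these were 491 and 2592 bases. The sites of the 5 carriers are given as 30 bases, 5′ to 3′, with the heptamer in capitals, because these genes include SREBF1. Positions are those of the heptamer's first base, counted from the first base after the stop codon. In SREBF1, on chromosome 17, the heptamer begins at base 94 of a 3′ UTR of 549 bases. In HMGCS1, on chromosome 5, it begins at base 15 of 1736, in SCD, on chromosome 10, at base 2108 of 3901, and in FADS1, on chromosome 11, at base 632 of 2786. In PMVK, on chromosome 1, the carrier whose interval covered 0, it begins at base 338 of 395. Their part in the differences was not tested, and no siRNA sequence was at hand to set beside them.
SREBF1: gccgaaggcagTGCAAGAgactctggcctc
HMGCS1: actctgtgaggTGCAAGActtcagggtggg
SCD: aagaagcaaggGCAAGAAcccaagtgcctc
FADS1: gaacctgatgaGCAAGAAttataacagcaa
PMVK: ccttgttctggGCAAGAAcccagagctccc

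Promoters were compared as the 250 bases before each annotated start (RefSeq, GRCh38.p14), searched on both strands, with any of a gene's listed starts counting. Of the 31 genes, 27 matched the promoter table, without ACAT2, FDFT1, SQLE and FASN. The CCAAT box, the site of the SREBP co-factor NF-Y, was present as CCAAT in 19 of the 27 (70.4%), against 41.6% of 10382 compared genes. The GC box GGGCGG, a site of SP-family factors, was present in 26 of 27 (96.3%), against 74.0%. The E-box CACGTG was present in SC5D, SCAP and INSIG1, 3 of 27 (11.1%), against 10.97%. The letters of these 3 motifs were searched one at a time, and a window could hold several. Genes on both sides of 0 were found with and without CCAAT: INSIG1, MSMO1, SC5D and IDI1, lower in siCINP, and TM7SF2, higher, had it, while INSIG2 and SREBF1, lower, and CYP51A1, higher, did not. The core TCACNCCAC of the sterol regulatory element, the sequence that SREBP proteins bind, was present in 1 of 27 (3.70%), against 1.14% of compared genes. That gene was SREBF2, whose promoter is known to respond to its own product. A stretch of 60 bases that holds the site is shown because it was the only match to this core, with the match in capitals, starting 133 bases before the annotated start (GRCh38.p14, plus strand, chr22:41832946-41833005). Known SREBP sites vary in sequence, and no match says only that these letters are not in the window.
SREBF2: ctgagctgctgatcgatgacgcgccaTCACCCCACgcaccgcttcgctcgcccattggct

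Within the listed genes the ratio went with transcript length. The 8 genes under 2000 bases had a median log2 ratio of 0.14, with 5 intervals above 0 and 0 below. The 23 longer genes had a median of -0.034, with 5 above and 11 below. The short genes were ACAT2, PMVK, MVD, FDPS, TM7SF2, NSDHL, HSD17B7 and EBP, all of the sterol branch. Across the 31 genes, Spearman's rho between length and ratio was -0.43 and Pearson's r with log length was -0.30. Within the sterol branch these were -0.43 and -0.48 over 18 genes. Across 13057 compared genes listed in both libraries, rho was 0.016 and r was 0.008, and 13.2% of intervals lay above 0 and 22.2% below in genes under 2000 bases, against 20.5% and 23.4% in longer ones. All of these genes share the same 2 libraries, genes are not independent replicates, and the boundary of 2000 bases was chosen after the values were seen.

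**Figure D4:**
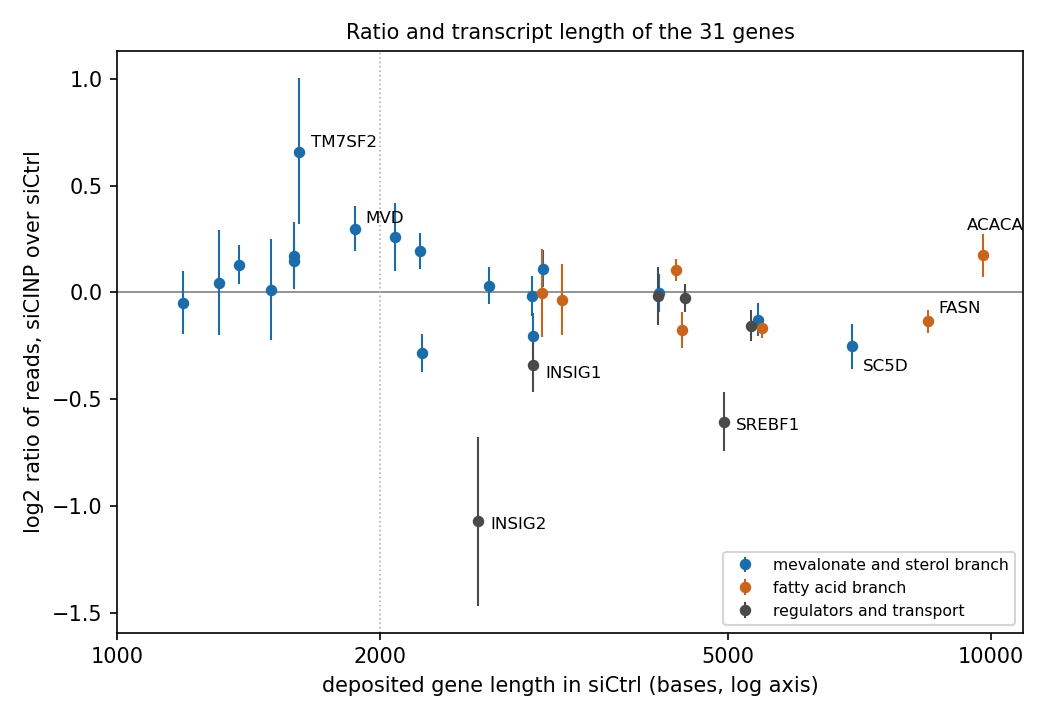
Log2 ratio of reads, siCINP over siCtrl, with 95% counting intervals against the deposited gene length in siCtrl (log axis) for the 31 genes, coloured by branch, with a dotted line at 2000 bases. The 8 genes left of the line have no interval below 0, and the 11 genes with one lie to its right.

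Other genes of lipid metabolism gave the setting, from 4 lists drawn up by role. None of their members passed the 2-fold rule. Over all compared genes, 18.6% of intervals lay above 0 and 23.1% below. Of 13 isoprenoid genes, which draw on farnesyl diphosphate for prenylation, dolichol and ubiquinone, 4 intervals lay above 0 and 1 below, with a median of 0.065, and 6 lay above 0 with each of the other scalings. ICMT, which methylates prenylated proteins, had 2042 reads in siCINP and 1504 in siCtrl (0.37, 0.28 to 0.47), with fractional counts. RABGGTB, a subunit of the Rab prenyltransferase, had 733 and 549 (0.35, 0.19 to 0.51), and GGPS1, geranylgeranyl diphosphate synthase, had 604 and 497 (0.21, 0.039 to 0.39), with fractional counts. NUS1, a subunit of the dolichol-forming transferase, had 1264 reads in siCINP and 1392 in siCtrl (-0.21, -0.32 to -0.10).

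For sterol transport and ester storage, 3 of 13 compared intervals lay above 0 and 5 below, with a median of -0.10. NCEH1, a cholesterol ester hydrolase, had 2037 reads in siCINP and 3287 in siCtrl (-0.76, -0.84 to -0.68), and STARD3NL, an endosomal membrane tether, had 288 and 450 (-0.71, -0.93 to -0.50). The oxysterol-binding proteins were higher, with 1006 reads in siCINP and 684 in siCtrl for OSBP (0.49, 0.35 to 0.63) and 863 and 579 for OSBPL2 (0.51, 0.35 to 0.66, fractional counts). For SREBP cleavage, degradation and LXR, 1 of 13 compared intervals lay above 0 and 4 below, with a median of 0.029. RNF139, a sterol-sensing ubiquitin ligase, had 318 reads in siCINP and 394 in siCtrl (-0.38, -0.60 to -0.16), SEC24A, a coat protein of vesicles leaving the endoplasmic reticulum, had 831 and 909 (-0.20, -0.34 to -0.06), and VCP, the ATPase of protein extraction from that membrane, had 4284 and 4432 (-0.12, -0.18 to -0.06).

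For the supply and use of acyl chains, 4 of 28 compared intervals lay above 0 and 12 below, with a median of -0.10. With the other scalings, 8 to 10 lay below 0. ME1, malic enzyme, a source of NADPH for chain synthesis, was the exception in size, with 463 reads in siCINP and 236 in siCtrl (0.90, 0.67 to 1.14). AGPAT2, an acyltransferase of glycerolipid synthesis, had 166 reads in siCINP and 270 in siCtrl (-0.77, -1.06 to -0.49). ELOVL7, an elongase, had 235 and 323 (-0.53, -0.78 to -0.28), and HACD3, a dehydratase of the elongation cycle, had 1282 and 1615 (-0.40, -0.51 to -0.29), both with fractional counts.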

How the data were processed

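RNA of 2 samples was sequenced on a BGISEQ-500, per the series design text. The authors deposited 1 table per library with an expected count, an FPKM value and a length for each gene, per the file headers. Expected counts are estimated reads per gene and are not normalised, and FPKM values deposited by the authors are scaled for length and library size. HISAT and Bowtie2 are the tools, and hg19 the build, in the submitters' processing notes, which give no versions. Which tool did the counting, and whether it used strand, is not given in the sources used here.

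Gene identifiers were matched to symbols (18971 of 19052) in a RefSeq table of GRCh38.p14, so no gene coordinates are taken from the files. Counts were rounded and scaled by TMM (edgeR 4.0.16, R 4.3.3), with factors of 1.03 for siCINP and 0.974 for siCtrl. A log2 ratio of siCINP over siCtrl carries a 95% interval by the exact Clopper-Pearson method, applied to how the reads divided between the libraries (scipy 1.17.1). A count was taken as whole within 0.005. The fold rules concern size and test nothing. PCR copies were not removed by molecular identifiers, so intervals cover counting error only.

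The listed genes, the other lists and the rules were chosen with earlier results of these data known. Beyond the 31 genes, each list's genes named are up to 4 with the interval end nearest 0 farthest from it, and 1 gene that this rule names is not reported here. Heptamers came from an earlier scan of the same libraries. Alternatives were scaling to summed counts, upper quartile and DESeq2 1.42.0 size factors, other minimums of reads, FPKM with pseudocounts of 0.1 and 1, whole counts only, other branch summaries and an interval wholly beyond 1.5-fold. The intervals and the 2-fold rule were tested on simulated counts with counting error alone and planted changes larger than 2-fold. Smaller changes, branch medians and variation between libraries were not simulated.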

Additional observations from a re-analysis of the deposited data

How the results depend on the processing

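Of 155 alternative values for the 31 genes (3 scalings and FPKM with 2 pseudocounts), 139 lay within that gene's own interval and 16 outside, and no gene whose interval left out 0 changed sign. All 33 alternative branch summaries moved by less than the median distance from a gene's ratio to its interval ends. That distance belongs to single genes, and moves of a branch median across 0 also fell within it. Scaling could not move the difference between branch medians, and the other minimums of reads dropped no listed gene. The ratios of summed reads are not among the 33. The medians ranged from -0.0021 to 0.12 for the sterol branch and from -0.085 to 0.041 for the fatty acid branch, so neither keeps its sign in every setting. With scaling to the summed counts, 0 genes were 2-fold lower and 1 was 1.5-fold lower. With upper quartile scaling and with DESeq2 size factors 1 gene was 1.5-fold lower. The log2 ratio of summed reads became 0.093 for the sterol branch and 0.017 for the fatty acid branch with summed counts, and 0.061 and -0.016 with upper quartile scaling. For SREBP cleavage, degradation and LXR, 3 intervals lay above 0 and 2 below with summed counts, and 2 above with upper quartile scaling. Without carriers of the heptamers, a setting added after the data were seen, 7 genes lay below 0, with fewer genes by construction. Scaling to the summed counts moved the median of all genes by 0.075. FPKM values have no counting interval, so the counts of genes past a rule have no FPKM alternative. No paired analysis was possible because each group has 1 library. For the same reason no library could be left out. INSIG2 and TM7SF2, with 82 to 192 reads, have the widest intervals of the 31 genes, and depth limits them most.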

Other observations

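The deposited length of a gene can differ between the libraries where several transcripts are listed for it. Of the 23 listed genes with several transcripts, 3 had lengths that differed by 1% or more (13.0%), against 30.6% of 7332 such genes among all compared genes. The length of HSD17B7 was 1462 bases in siCINP and 1500.2 in siCtrl, that of STARD4 4381 and 4472, and that of FDPS 1399 and 1381. All 3 genes had counts that were not whole. SREBF1, with 2 listed transcripts, had 4949 bases in siCINP and 4947 in siCtrl. The boundary of 1% was chosen after the values were seen.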
